A study of Homo sapiens with 14 samples.

Results

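The 30 genes described here are listed p53 pathway and target genes. Each was followed in all 7 groups of a poly(A)-selected RNA-seq series of IMR90, a line of primary human fetal lung fibroblasts. The members were given as a list of gene names, with no threshold on their measured values. All 30 were among the 24638 genes that every kind of table lists. The series set out to compare replicative senescence, the arrest that follows exhaustive passaging, with treatment by inflachromene (ICM), a small-molecule ligand of the chromatin proteins HMGB1 and HMGB2, and with knockdown of HMGB2. The I79 young and I10 young groups were cells of 2 isolates of the line, and I79 old and I10 old were the same isolates driven to replicative exhaustion by passaging. I79_ICM was isolate I79 treated with ICM. The other groups carried the genotype labels wild type, here WT, and HMGB2 knockdown, here HMGB2 KD and made with siRNA, with no isolate, passage, control siRNA or time given in the labels. The labels give neither the dose nor the duration of ICM treatment for these libraries. Differences between old and young cells rest on 2 isolates of 1 line, and nothing in the labels says whether the replicates of a group were separate cultures.

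p53 is a transcription factor that is stabilised by DNA damage, telomere attrition and other stresses, binds a response element made of a pair of similar half-sites, and switches on genes for cell cycle arrest, DNA repair, metabolism and apoptosis. Among its targets are its own inhibitors, the ubiquitin ligase gene MDM2 and the phosphatase gene PPM1D, which close a negative feedback loop. In senescent fibroblasts the arrest gene CDKN1A is the best known target, and the 30 genes here are others of the same program.

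To look for sequences like the response element, the GRCh37 genome was searched 2500 bases either side of the annotated start of each member. The search was for a pair of half-sites of 10 bases, at most 13 bases apart. The p53 half-site consensus is its own reverse complement, so that a search of one strand covers both. The central C, A or T, A or T, G of each half-site had to be intact and at most 2 mismatches were allowed in the other bases of the pair. A pair was found at 18 of the 30 members (60.0%), against 24.2% of 20099 protein-coding windows of the same length. With at most 1 mismatch it was 8 members (26.7%) against 5.35% of windows. In the shorter RefSeq promoters (build GRCh38.p14, 250 bases before to 50 after the start), which matched 22 members, 3 held a pair against 1.46% of all promoters. In the longer windows no pair was found at TNFRSF10D, PHLDA3 and TP53I3, which were called in old cells. Nor was a pair found at MDM2, FDXR, PLK3 and TP53INP1, among others. Only this form of pair near a single annotated start was searched for, so a gene without one may still hold a response element. The pairs below are a choice from the 18 members that held one. They are given 5′ to 3′ on the strand of the gene with the half-sites in capitals, and each is the pair with the fewest mismatches in its window.
PLK2: tgagAAACATGCCTGGACTTGCCCtgca
ZMAT3: cataAAACAAGTCCAGACATGCCTaggc
GADD45A: tacaGAACATGTCTAAGCATGCTGggga
CCNG1: gtgaGCACAAGCCCAGGCTAGTCCgagg
DDB2: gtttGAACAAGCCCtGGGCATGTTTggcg
TIGAR: tgccAGACATGTCCacAGACTTGTCTgggt
GDF15: ttgcCATCTTGCCCAGACTTGTCTcgaa
SPATA18: ggaaGGACATGTGTGTACATGCCCttgt
The PLK2 pair (chr5:57758097-57758124, minus strand) lay upstream, at -2198 relative to the start, and had no mismatch. The ZMAT3 pair (chr3:178787972-178787999, minus strand) was in intron 1 and also had none. The GADD45A pair (chr1:68152454-68152481, plus strand) was in intron 3, 1584 bases past the start, with 1 mismatch, and the CCNG1 pair (chr5:162864928-162864955, plus strand) in intron 1 with 1 mismatch. The DDB2 pair (chr11:47236526-47236554, plus strand) was in the untranslated part of exon 1 and the TIGAR pair (chr12:4430777-4430806, plus strand) in intron 1, both without a mismatch but with a spacer. The GDF15 pair (chr19:18496114-18496141, plus strand), at -840 relative to the start, and the SPATA18 pair (chr4:52918119-52918146, plus strand), in intron 1, had 2 mismatches each. These matches are descriptions of sequence, and binding was not measured in these libraries.

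The total count per table ran from 14991385 to 20632959 estimated counts for the old and young groups, from 33561766 to 41168932 counts for the WT and HMGB2 KD libraries, and was 13290131 and 10971132 estimated counts for the ICM libraries. The old and young files hold 1 table per group although the labels list 2 replicates, so each of their values is given as the authors' value without an error. The 10 fibroblast markers summed to 14300 to 45600 CPM (counts scaled to library size) in each table. The epithelial marker EPCAM reached at most 0.716 CPM, and CDH1, KRT5, SFTPC, NKX2-1, CDH5, PTPRC and CD3E, markers of epithelial, endothelial and immune cells, did not reach 10 counts in 2 tables. PECAM1 is not listed in the old and young tables and was not compared. Over the markers that were compared, the summed levels ran from 0.348 to 8.94 CPM for epithelial cells (EPCAM and KRT19), 0.42 to 10.2 CPM for endothelial cells (VWF and KDR), 24.5 to 160 CPM for immune cells (CD68 and CD14, nearly all CD68) and 10.8 to 107 CPM for smooth muscle (MYH11, CNN1 and DES), and their part in the results was not tested. HMGB2 fell after its knockdown, with 27.1 and 27.35 CPM in the WT libraries against 3.22 and 3.64 CPM (log2 fold change -2.99 ± 0.16 SE, adjusted p = 8.28e-07). LMNB1, a nuclear lamina gene lost in senescence, fell in old cells (-2.86 ± 0.18, adjusted p = 0.00361).

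In young cells the members covered a range of more than 100-fold in level. PLK2, a stress-induced polo-like kinase gene, was the highest member per unit of length at 226 and 232 TPM (transcript level scaled for length and library size) in I79 and I10, followed by the cyclin G1 gene CCNG1 at 146 and 156 TPM. The lowest was TNFRSF10C, a decoy receptor for the death ligand TRAIL, at 1.84 and 2.04 TPM. Neighbours in the order of levels, such as DDB2 (32.5 and 32.6 TPM) and XPC (33.7 and 32.75 TPM), differed by less than MDM2 did between the young isolates (50.6 and 62.9 TPM). In old cells GDF15 was the highest member in I79 at 442 TPM, while in I10 it was CCNG1 at 248 TPM.

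**Figure D1:**
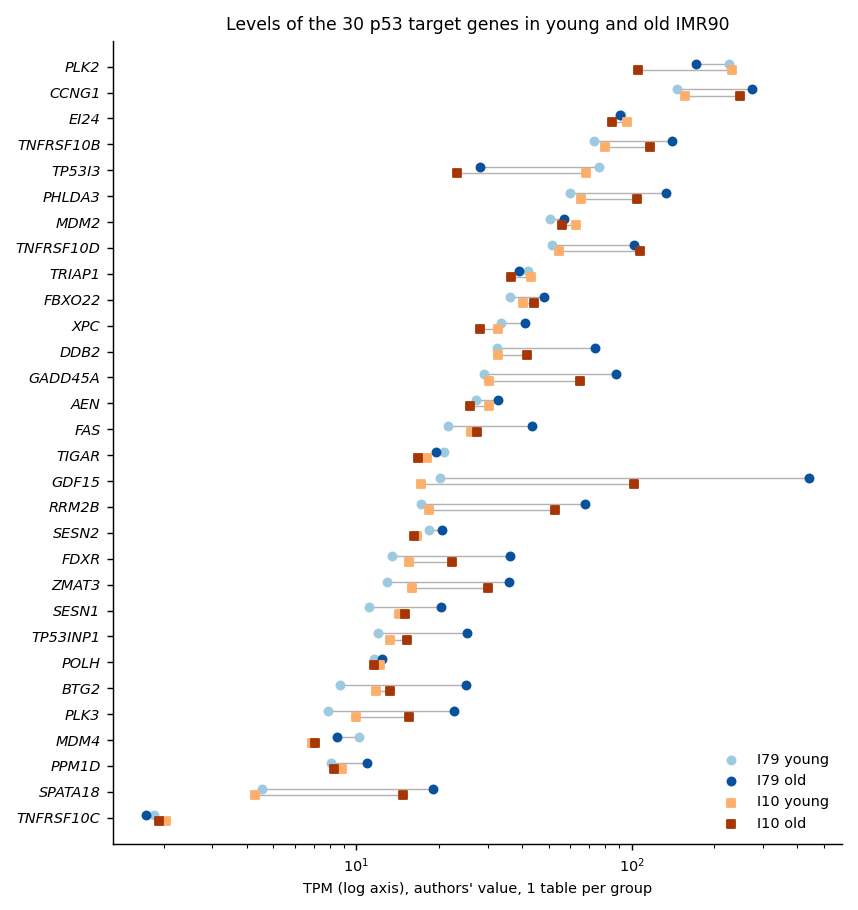
Level of each of the 30 members in TPM (log axis) in the 4 old and young tables, with a grey line joining young and old cells of an isolate. GDF15 moved furthest in both isolates, from 20.1 to 442 TPM in I79 and from 17.2 to 102 TPM in I10, while TP53I3 and PLK2 were lower in both old tables.

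Old cells were compared with young cells over both isolates. The study names an adjusted p under 0.05 in its results and under 0.01 in its methods, each with a log2 fold change over 0.6. Genes were called here at the stricter pair, 0.01 and 0.6. Of the 30 members, all of which were tested, 9 rose and 1 fell, against a background of 5.74% of 15116 genes called higher and 3.78% called lower. The median log2 fold change of the members was 0.61, beside -0.01 over all genes tested. Those that rose were GDF15, SPATA18, RRM2B, GADD45A, ZMAT3, TNFRSF10D, CCNG1, PHLDA3 and TNFRSF10B, and the gene that fell was TP53I3. In bulk RNA, more or fewer cells that express a gene and more or less of its RNA per cell cannot be told apart.

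The secreted member, GDF15, had the largest fitted change of the list. This gene, a stress cytokine of the TGF-beta superfamily, went from 12.6 to 303.5 CPM (I79) and 10.6 to 73.7 CPM (I10), and rose by a log2 fold change of 3.71 ± 0.46 (adjusted p = 0.00805). Its levels in both old tables were above those in both young tables, but they lay far apart from each other, and without isolate as a covariate the gene was no longer called. TNFRSF10B, the death receptor DR5 for TRAIL, rose from 133 to 283 CPM and from 140 to 245 CPM (0.95 ± 0.12, adjusted p = 0.00873). The decoy receptor TNFRSF10D rose from 106 to 231 CPM and from 110 to 255 CPM (1.17 ± 0.10, adjusted p = 0.00491), and the neighbouring decoy gene TNFRSF10C stayed between 1.73 and 2.10 CPM in all 4 tables (adjusted p = 0.83). FAS, the receptor of the Fas ligand, read 25.2 and 52.9 CPM in I79 and 28.6 and 34.7 CPM in I10 and did not pass (0.67 ± 0.21, adjusted p = 0.0718).

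Among the growth arrest genes, GADD45A, a sensor of stress that acts on CDK1 and MAP kinases, rose from 23.2 to 77.0 CPM (I79) and 22.95 to 60.2 CPM (I10) (1.56 ± 0.13, adjusted p = 0.00468). ZMAT3, an RNA-binding zinc finger gene, rose from 67.5 to 204 CPM and from 79.1 to 175 CPM (1.37 ± 0.145, adjusted p = 0.00618). CCNG1, which recruits a phosphatase to MDM2, rose from 179 to 388 CPM and from 195 to 357 CPM (0.99 ± 0.12, adjusted p = 0.0082). For each of these 3 genes both old tables stood above both young ones. The polo-like kinase genes went apart: PLK2 read 279 and 209 CPM in I79 and 266 and 132 CPM in I10 (-0.71 ± 0.17, adjusted p = 0.0369), and PLK3 8.13 and 26.0 CPM in I79 and 9.65 and 17.9 CPM in I10 (1.28 ± 0.23, adjusted p = 0.0192). Neither passed the threshold at 0.01, and the difference between the 2 kinase genes was not tested. The antiproliferative gene BTG2 was also uncalled (1.00 ± 0.33, adjusted p = 0.076).

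Of the DNA repair and nucleotide supply genes, RRM2B was called. It encodes the p53-inducible subunit of ribonucleotide reductase and rose from 39.2 to 184 CPM (I79) and 42.9 to 141 CPM (I10) (1.97 ± 0.16, adjusted p = 0.0043). DDB2, a sensor of UV damage, read 24.4 and 67.2 CPM in I79 and 25.2 and 38.5 CPM in I10 without a call (1.04 ± 0.23, adjusted p = 0.029). XPC, which recognises distorted DNA, and POLH, the translesion polymerase eta, had log2 fold changes of 0.17 and 0.20 with adjusted p of 0.415 and 0.262. The fitted log2 fold changes of these 4 genes ranged from 0.17 to 1.97.

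The metabolic and mitochondrial members went in both directions. SPATA18, a gene of mitochondrial quality control, rose from 7.68 to 42.9 CPM (I79) and 7.88 to 32.1 CPM (I10) (2.25 ± 0.17, adjusted p = 0.0042). TP53I3, also named PIG3, a quinone oxidoreductase gene, fell from 48.8 to 18.2 CPM (I79) and 44.8 to 15.6 CPM (I10) (-1.47 ± 0.12, adjusted p = 0.00447). Both old tables of TP53I3 lay below both young ones. FDXR, which encodes the mitochondrial ferredoxin reductase, read 13.3 and 38.3 CPM in I79 and 14.7 and 25.3 CPM in I10 (1.15 ± 0.21, adjusted p = 0.0199). TP53INP1, a gene linked to autophagy, reached 0.82 ± 0.20 (adjusted p = 0.0388). SESN1 and SESN2, which encode inhibitors of mTORC1 signalling, had log2 fold changes of 0.55 and 0.25, and TIGAR, a regulator of glycolysis, had -0.09, none of them called (adjusted p = 0.103, 0.147 and 0.638).

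None of the 3 feedback genes was called. MDM2 read 96.0 and 127 CPM in I79 and 111 and 118 CPM in I10 (0.24 ± 0.12, adjusted p = 0.19), its relative MDM4 had a log2 fold change of 0.0017 (adjusted p = 0.993), and PPM1D one of 0.32 (adjusted p = 0.213). Of the remaining members, PHLDA3, an inhibitor of Akt, rose from 59.1 to 131 CPM (I79) and 58.0 to 102 CPM (I10) (0.98 ± 0.12, adjusted p = 0.00811). The nuclease gene AEN, the F-box gene FBXO22, the apoptosis inhibitor gene TRIAP1 and EI24, which encodes an endoplasmic reticulum protein, had log2 fold changes between 0.02 and 0.17 and were not called. This fit has 1 residual degree of freedom. Over all genes it called 1440, while DESeq2 on the same tables called 2144. Leaving out either young table left 0 genes called by edgeR, with 4410 genes and 13 members (without I79 young) or 4431 genes and 16 members (without I10 young) at an unadjusted p under 0.05, and DESeq2 on all 4 tables called 13 members higher and 2 lower.

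Isolate by isolate, with 1 table per state and so without a test, 16 members were higher in old I79 by more than 0.6 on the log2 scale and 1 was lower, beside 21.9% and 20.1% of all genes. In I10 12 were higher and 2 lower, beside 19.0% and 19.2%. All 12 members higher in I10 were among the 16 of I79, and TP53I3 was lower in both. The median change of the members was 0.985 in I79 and 0.24 in I10 on TMM-scaled counts. With library totals as the only scaling, which shifted the median of all genes to -0.16 in I79 and -0.27 in I10, the members' median was 0.82 in I79 and turned to -0.0158 in I10. Exact 95% intervals, which cover counting error only, lay above 0 for 24 members in I79 and for 17 in I10, beside 34.2% and 33.0% of all genes. They lay below 0 for 2 members in each isolate, beside 34.0% and 33.4%. With library totals they lay above 0 for 20 members in I79 and 13 in I10, and below 0 for 3 and 10. The shares of all genes were not worked out at this scaling, which also lowered the median of all genes. These counts are therefore no result about the members.

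The change was more positive in I79 than in I10 for 27 of the 30 members, while 50.7% of all tested genes leaned that way. The difference was over 0.6 for 8 members, all toward I79, beside 12.3% of all genes toward I79 and 9.79% toward I10. GDF15 differed most, with changes of 4.59 (counting interval 4.38 to 4.80) in I79 and 2.80 (2.59 to 3.02) in I10, and a difference of 1.79 (1.49 to 2.09). BTG2 changed by 1.64 in I79 and 0.36 in I10, a difference of 1.28 (0.96 to 1.60). DDB2 differed by 0.85 (0.61 to 1.09), FAS by 0.79 (0.55 to 1.04), PLK3 by 0.79 (0.40 to 1.19), TP53INP1 by 0.77 (0.58 to 0.96), FDXR by 0.74 (0.42 to 1.06) and SESN1 by 0.69 (0.39 to 0.99). None of these 8 except GDF15 was called in old against young cells. The 1 residual degree of freedom of that fit is the difference between the isolates, so that a large difference counts against a call. DESeq2 also called DDB2, FDXR, PLK3 and TP53INP1, but not BTG2, FAS or SESN1. PLK2, with a difference of 0.59 (0.49 to 0.68), lay just under the threshold. It was lower in both old isolates, by -0.42 in I79 and -1.01 in I10. The change of TNFRSF10D (1.12 in I79 and 1.22 in I10) and of TP53I3 (-1.43 and -1.52) was close in both isolates, with intervals of the difference that hold 0 (-0.21 to 0.02 and -0.18 to 0.37). With 1 table per isolate and state, isolate and culture cannot be told apart.

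**Figure D2:**
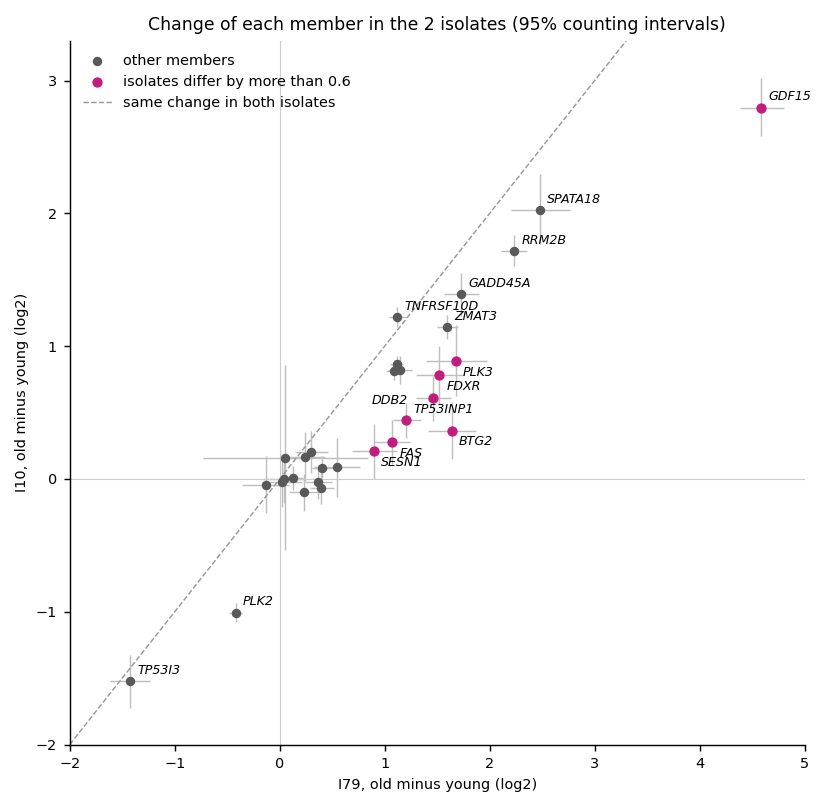
Log2 change from young to old cells of each member in I79 (x axis) and I10 (y axis), with exact 95% counting intervals as bars and the line of equal change dashed. The 8 members in magenta, led by GDF15 (4.59 against 2.80) and BTG2 (1.64 against 0.36), lie below the line by more than 0.6.

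The old and young tables also give each annotated transcript, as estimated by the authors' quantification. In GADD45A, GDF15 and ZMAT3 a single transcript held most of the gene's TPM in every table. GADD45A-202 held 89.5% to 98.1% in the 4 tables, GDF15-201 97.6% to 99.04%, and ZMAT3-201 86.3% to 88.65%. MDM2 is transcribed from an upstream promoter and from a p53-responsive promoter in its first intron. MDM2-202, which starts upstream, held 17.4% and 18.6% in young and old I79 and 16.4% and 17.1% in I10, and MDM2-224, which starts inside the gene, held 28.6% and 29.5% in I79 and 21.6% and 27.3% in I10. The short transcript MDM2-226 went from 20.8% to 0% in I79 and from 0% to 35.1% in I10, so that shares of single MDM2 transcripts were unstable between tables. SESN1-204, which starts far upstream of the other SESN1 transcripts, read 1.96 and 0.94 TPM in young and old I79 and 2.88 and 1.42 TPM in I10. SESN1-202, from an internal start, read 7.88 and 16.2 TPM in I79 and 8.45 and 8.16 TPM in I10. In TP53I3 the transcript TP53I3-202 read 35.8 and 8.99 TPM in I79 and 33.8 and 7.06 TPM in I10, whereas TP53I3-203, whose start is further inside the gene, read 5.21 and 9.52 TPM in I79 and 4.68 and 3.98 TPM in I10. For DDB2 the transcript DDB2-203, annotated as a target of nonsense-mediated decay, went from 1.58% to 10.2% of the gene in I79 and from 0% to 10.3% in I10. These shares come from 1 table per group and carry no error estimate.

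**Figure D3:**
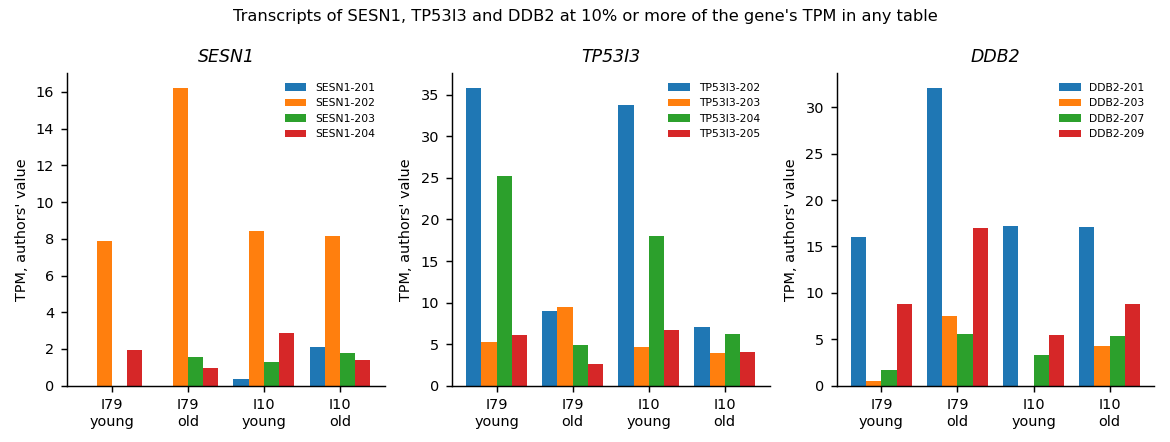
TPM of the transcripts of SESN1, TP53I3 and DDB2 that held at least 10% of the gene in any table, as bars for the 4 old and young tables. TP53I3-202 was lower in old cells of both isolates (8.99 against 35.8 TPM and 7.06 against 33.8 TPM) and SESN1-202 was at 16.2 TPM in old I79 and 7.88 to 8.45 TPM in the other tables.

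HMGB2 knockdown was compared with WT to see which p53 targets differ between them. Scaled over the genes that every kind of table lists, WT already stood at 29.5 CPM of HMGB2. I79 young cells stood at 139 CPM and I79 old cells at 38.8 CPM, counted in another way. The effect of losing HMGB2 from a young level was therefore not tested. Of the 29 members that were tested, 1 rose and 2 fell, beside 2.86% of 15338 genes called higher and 2.34% called lower, and the median log2 fold change of the members was 0.24 beside 0.0018 for all genes. The WT libraries held 602 and 365 CPM of GDF15 and the knockdown libraries 220.5 and 192 CPM. The gene fell from 484 ± 168 to 206 ± 20.1 CPM (SD, n = 2 each), a log2 fold change of -1.23 ± 0.20 (adjusted p = 0.00129). PLK2 fell from 675 and 641 CPM to 340 and 235 CPM (-1.19 ± 0.17, adjusted p = 0.00059). GADD45A rose from 28.9 and 28.05 CPM to 40.8 and 53.7 CPM (0.73 ± 0.15, adjusted p = 0.00614). In all 3 genes both knockdown libraries lay on one side of both WT libraries.

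Below the threshold, PLK3 read 25.85 and 25.9 CPM in WT and 36.1 and 43.9 CPM (0.63 ± 0.14, adjusted p = 0.0106). AEN, TP53INP1, CCNG1 and FAS had log2 fold changes of 0.50, 0.50, 0.52 and 0.50, with adjusted p of 0.0189, 0.0233, 0.0242 and 0.0351, and were not called. BTG2 (-0.48) and SESN1 (-0.43) leaned the other way, with adjusted p of 0.087 and 0.0846. The inhibitors MDM2 (-0.18, adjusted p = 0.448), MDM4 (-0.13) and PPM1D (0.24) and the repair genes RRM2B (0.01), DDB2 (0.19) and XPC (-0.23) were not called. The libraries of the groups did not overlap for 22 of the 29 tested members (75.9%), 15 of them higher and 7 lower in HMGB2 KD, beside 53.8% of all genes. SESN2 was not tested: it had 1 and 12 counts in the WT libraries and 1 in each HMGB2 KD library, while the old and young tables listed it at 32.6 to 45.35 CPM, and what sets its near absence from the 4 knockdown tables was not tested. Without the second HMGB2 KD library only PLK2 was still called, and the adjusted p of GDF15 became 0.0265 and that of GADD45A 0.0434. GADD45A was also lost without either WT library.

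**Figure D4:**
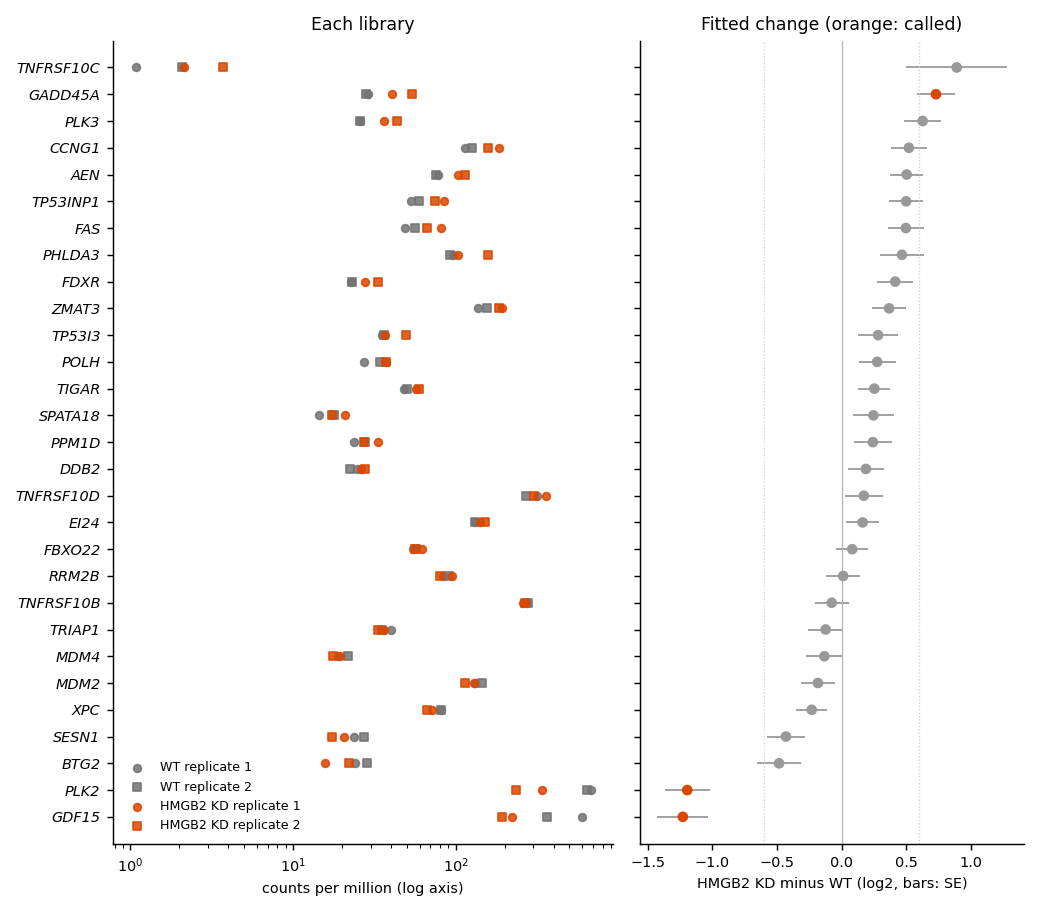
Left, CPM (log axis) of the 29 tested members in each WT (grey) and HMGB2 KD (orange) library; right, the fitted log2 fold change with its SE, with dotted lines at 0.6 in either direction. GADD45A (0.73), PLK2 (-1.19) and GDF15 (-1.23) were called.

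The ICM libraries were set beside I79 young cells, the same isolate without treatment, over 14982 genes and without a test, since these tables were made by different counting methods. At a log2 ratio over 0.6, 18 members were higher and 4 lower in ICM, beside 30.5% and 30.3% of all genes. The WT libraries were set against I79 young cells by the same steps. In WT 13 members were higher and 2 lower, beside 21.3% and 23.9% of all genes, and 12 members were higher in both ICM and WT. WT cells stood apart from young cells in HMGB2 (mean 29.5 against 139 CPM, I79 old 38.8), LMNB1 (21.9 against 84.2, old 8.42) and CDKN1A (1279 against 404, old 2385). The state of the WT cells and the way of counting cannot be told apart. The median ratio of the members was 0.80 in ICM and 0.52 in WT. With WT in place of I79 young cells as control, 7 members were higher and 6 lower in ICM, with a median of 0.22 beside 0.0 over all genes. The shares of all genes were not worked out for these counts, nor for the 12 members higher in both. Values that set ICM against I79 young cells therefore hold the difference between the tables as well as that of the treatment, which cannot be told apart.

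GDF15 stood at 14.4 CPM over the shared genes in I79 young cells, at 308 CPM in I79 old cells and at 210 and 272 CPM in the ICM libraries (241 ± 43.8 CPM, SD, n = 2), but also at 653 and 396 CPM in the WT libraries. GADD45A stood at 26.4 CPM in young cells, 124 and 131.5 CPM in ICM (128 ± 5.51 CPM, SD, n = 2) and 31.4 and 30.4 CPM in WT, so that both ICM libraries were above the old I79 table at 78.1 CPM and above both WT libraries. TIGAR stood at 23.4 CPM in young and 19.0 CPM in old I79 cells and at 86.5 and 74.3 CPM in ICM, with WT between them at 52.0 and 54.3 CPM. POLH stood at 27.0 CPM in young and 28.4 CPM in old cells, 66.3 and 63.2 CPM in ICM and 29.7 and 36.99 CPM in WT.

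Among the genes at the lower end, MDM4 stood at 29.7 CPM in I79 young and 26.9 CPM in I79 old cells, 8.23 and 8.75 CPM in ICM, against 20.5 and 23.5 CPM for the WT libraries. DDB2 stood at 27.8 CPM in young, 68.2 CPM in old, 15.15 and 14.9 CPM in ICM, with WT at 26.8 and 24.3 CPM. TP53INP1 stood at 45.7 CPM in young, 93.9 CPM in old and 29.7 CPM in both ICM libraries. For DDB2 and TP53INP1 the ICM libraries were below the young table and the old table above it. PLK2 stood at 318 CPM in young, 212 CPM in old and 158 and 155 CPM in ICM, but at 733 and 694 CPM in WT. TP53I3, which fell in old cells, stood at 55.7 CPM in young and 54.1 and 62.5 CPM in ICM.

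The share of ICM reads in coding sequence differed widely between members, from 15.2% for TP53INP1 to 90.8% for PLK3 in the first library, and the choice of reads mattered. The setting with coding and noncoding reads alone dropped reads in untranslated regions from the ICM libraries only. I79 young cells and WT kept all their counts, so that a member with a low coding share is lowered by construction. BTG2 (16.7% coding in the first ICM library) went from a log2 ratio of 1.23 to -0.67. ZMAT3 (18.9%) went from 0.75 to -0.97 and MDM2 (31.8%) from 0.73 to -0.27. GADD45A, POLH, SPATA18, EI24 and TNFRSF10C (5 members) were higher by more than 0.6, and MDM4, PLK2, DDB2 and TP53INP1 (4 members) lower, with all reads, with coding and noncoding reads alone, and against WT in place of I79 young cells. Of all genes, 16.2% were higher and 17.3% lower under the same 3 settings, which were combined after the data were seen, so that the shares of the members were close to those of all genes. TNFRSF10C was at 6.14 and 4.71 CPM in ICM, among the lowest levels of the list.

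**Figure D5:**
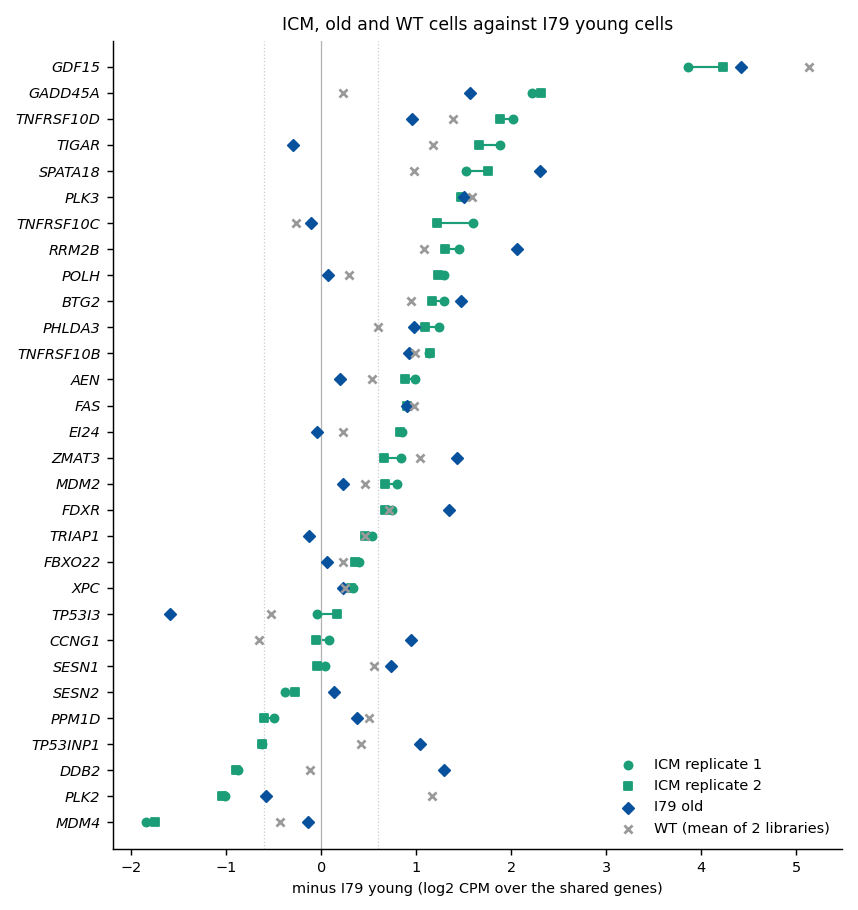
Log2 CPM of each member minus that in I79 young cells, for the 2 ICM libraries, I79 old cells and the mean of the WT libraries, with dotted lines at 0.6 in either direction. The WT value of SESN2 (-7.53) lies outside the axis; among the members on opposite sides of 0 are DDB2 (-0.89 in ICM and 1.29 in I79 old), TP53INP1 (-0.62 and 1.04) and TIGAR (1.77 and -0.30).

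Across the comparisons GADD45A and GDF15 were the members called in both tested contrasts. The share of all genes called in both was not worked out, and both knockdown calls depended on which libraries were kept. GADD45A was higher in old cells (1.56) and in HMGB2 KD (0.73) and stood above young cells by 2.27 in ICM. GDF15 was higher in old cells (3.71) but lower in HMGB2 KD (-1.23). These contrasts start from different levels. Over the shared genes GDF15 stood at a mean of 525 CPM in WT, against 14.4 CPM in I79 young and 308 CPM in I79 old cells, counted in another way. PLK2, called in the knockdown (-1.19), was at -0.71 in old cells, where it was not called by the fit reported here but was called lower by DESeq2, with no filter on low counts and without the I79 old table, and -1.03 in ICM against I79 young cells. The ICM and I79 old values share the I79 young table.

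Other genes of the pathway were listed in 2 groups, p53 with its regulators (19 genes) and further targets (40 genes), all tested in both contrasts. In old cells 3 of the 19 regulators were called, and these fell, beside 3.78% of all genes called lower. Among them were CHEK1 (-1.54) and ATR (-0.89), genes of the replication checkpoint. In HMGB2 KD 1 fell (2.34% of all genes were called lower), the checkpoint kinase gene CHEK2 (12.5 ± 0.883 to 7.02 ± 0.0724 CPM, SD, n = 2 each, log2 fold change -0.83, adjusted p = 0.0065). Of the 40 further targets 11 were called in old cells, and these rose, beside 5.74% of all genes called higher. Among them were PTCHD4 (5.09), IGFBP3 (4.28) and CDKN1A (2.48, from 293 to 1750 TPM in I79 and from 289 to 1145 TPM in I10). In HMGB2 KD 6 rose and 2 fell, beside 2.86% and 2.34% of all genes, among them LIF (-1.38), BTG1 (-1.06) and CD82 (0.88). CDKN1A was not called there, where WT held 1163 and 1196 CPM and the knockdown 1300 and 1516 CPM (0.26, adjusted p = 0.325). The medians of the further targets were 0.68 in old cells and 0.24 in HMGB2 KD, beside 0.61 and 0.24 for the 30 members.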

How the data were processed

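RNA of 7 groups of IMR90 cells with 2 labelled replicates each (14 samples) was analysed. The members and the other gene lists were chosen with earlier results of these data known. The knockdown experiment came as raw gene counts as the authors deposited them; the submitters' processing notes name STAR 2.6.0c, featureCounts and GRCh37, the summary rows have the layout of another counter, the use of strand is not given in the sources used here, and these rows (16.9% to 18.0% of the totals) were left out. For old and young cells the authors deposited 1 table of estimated counts and TPM per transcript and group, with no statement on whether it pools replicates; estimated counts were summed per gene over the 97.7% of transcript IDs found in GENCODE and rounded. For ICM the authors deposited estimated counts per gene and transcript region, which were summed. EffectiveLength, a deposited length in bases, entered counts from TPM.

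edgeR 4.0.16 (quasi-likelihood test, TMM, filterByExpr, Benjamini-Hochberg over all genes) was fitted to WT and HMGB2 KD, and to old and young tables with isolate as covariate; both scripts were tested on simulated data. CPM are TMM-scaled, except in the ICM comparison (shared genes, at least 10 counts in 2 tables, log2 with a prior count of 2). Within-isolate ratios have an offset of 0.5, with exact Clopper-Pearson intervals, and their difference has the exact conditional interval of an odds ratio, both at 95%. Every member is accounted for, and full values are given for those called or differing by over 0.6 between isolates; of the other lists the 4 called genes with the largest change were to be named, and some of these are not reported here. Genes named for ICM were chosen after their values were seen. Other tools, filters, scalings and left-out libraries are given in the closing section. Genes that overlap a coding gene on the other strand, such as FAS (ACTA2) and TP53INP1 (NDUFAF6), could share reads where strand was not used. TIGAR and TNFRSF10C overlap a coding gene on the same strand, which strand would not separate, so their values are uncertain.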

Additional observations from a re-analysis of the deposited data

Results flagged for a closer look

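On TMM-scaled counts 0 members moved in opposite directions in the 2 isolates beyond their counting intervals. With library totals, applied to these intervals after the data were seen, 3 members did, MDM2 (0.24 in I79 and -0.18 in I10), XPC (0.23 and -0.33) and AEN (0.20 and -0.28). Among the other listed genes, 4 did on TMM-scaled counts. With library totals 6 did, the same 4 with RPL5 and CES2 added. Each rests on 1 table per state, so that the difference between isolates was not tested across cultures. The share of all genes with opposite intervals was not worked out, so these counts are no result about the listed genes. CHEK2, a checkpoint kinase gene, went from 4.48 to 2.77 CPM (I79) and 4.69 to 10.45 CPM (I10), a difference of I79 minus I10 of -1.84 (counting interval -2.52 to -1.18). CMBL, a hydrolase gene, went from 24.3 to 37.9 CPM (I79) and 29.9 to 24.6 CPM (I10), a difference of 0.92 (0.67 to 1.19). LIF, a cytokine gene of the IL-6 family, went from 110 to 165 CPM (I79) and 109 to 101 CPM (I10), a difference of 0.68 (0.56 to 0.81). HIPK2, a kinase gene that acts on p53, went from 345 to 406 CPM (I79) and 340 to 326 CPM (I10), a difference of 0.30 (0.23 to 0.37).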

How the results depend on the processing

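After HMGB2 knockdown the fit as reported called 1 member higher and 2 lower. No filter on low counts, the DESeq2 Wald test, an adjusted p of 0.05 and a replicate block, which pairs libraries by number, each gave 2 higher (PLK3 added); the correlation of same-numbered deviations was 0.18 over 2 pairs, and the labels say nothing of a shared culture. Leaving out 1 library gave 0 to 3 members higher and 1 to 2 lower, and a median of 0.16 to 0.28. Over all genes 797 were called, against 1243 with the block and 312 to 999 without 1 library. In old against young cells no filter gave 15 higher and 2 lower, DESeq2 and an adjusted p of 0.05 each gave 2 lower (PLK2 added), and leaving out 1 table gave 0 to 16 higher and 0 to 2 lower, 0 without either young table; all genes called were 1440, against 4253 with no filter, 3857 at an adjusted p of 0.05 and 0 to 3890 with 1 table left out. With library totals the median in I10 was -0.0158. For ICM, coding and noncoding reads, a cut made in the ICM libraries only, gave 7 lower and a median of 0.41. With WT as control 7 were higher and 6 lower, with a median of 0.22. Pairs of half-sites with at most 1 mismatch were found at 8 members. Signs turned for uncalled members near 0: in the knockdown RRM2B (-0.1257 to 0.1335 over left-out libraries) and FBXO22 (-0.0016 to 0.1562), and in old cells, over left-out tables, MDM4 (-0.0467 to 0.0527), XPC (-0.0791 to 0.4123), FBXO22 (-0.0598 to 0.1871) and TNFRSF10C (-0.0149 to 0.2214), MDM4 also with no filter (-0.0163) and TIGAR with counts from TPM (0.0811). In ICM, BTG2 (-0.67), MDM2 (-0.27) and ZMAT3 (-0.97) turned with coding reads, as did SESN1, CCNG1 and TRIAP1, which were within 0.6, and FAS (-0.0803), FDXR (-0.0002), GDF15 (-1.09), PLK3 (-0.1086) and ZMAT3 (-0.29) against WT, as did SESN2 (-0.32 to 7.21), which is nearly absent from the WT tables. Beyond the fewer reads or tables that some settings leave, and the cut of reads on the ICM side alone, the cause was not tested.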
